A study of Homo sapiens with 6 samples.

Results

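The proteins of small nucleolar ribonucleoproteins (snoRNPs) and a few abundant nucleolar assembly proteins were followed through ribosome footprints of RKO cells, an established human colorectal cancer line. The set has 10 genes, taken by symbol from the 20289 genes of the deposited table: NOP56, NOP58 and FBL of box C/D snoRNPs, DKC1, NHP2, NOP10 and GAR1 of box H/ACA snoRNPs, RRP9 of the U3 snoRNP, and the nucleolar proteins NCL and NPM1. All 10 were among the 11566 genes tested, those with at least 1 FPKM (fragments per kilobase, scaled to the library's reads) in at least 3 libraries. Low FPKM values came nearer to whole reads with coding length than with transcript length. The 6 libraries are 3 from cells labelled WT that carry a control hairpin (shControl) and 3 from cells with a hairpin against TRMT6 (shTRMT6), a subunit of the tRNA methyltransferase that makes m1A. The labels name no drug, time point or further allele, and do not say how many hairpins were used or whether the 3 libraries of a group were separate cultures, so a p-value here refers to the spread among the libraries, which may be technical.

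Small nucleolar RNAs guide the chemical modification of ribosomal RNA in the nucleolus. Box C/D snoRNAs carry the methyltransferase fibrillarin (FBL), held by the paired scaffold proteins NOP56 and NOP58, and direct methylation of ribose. Box H/ACA snoRNAs carry the pseudouridine synthase dyskerin (DKC1) with NHP2, NOP10 and GAR1, and this protein set is also part of telomerase. The U3 snoRNP, which holds RRP9 besides the box C/D proteins, acts in the cleavage of the ribosomal RNA precursor. Nucleolin (NCL) and nucleophosmin (NPM1) are abundant RNA-binding proteins of the nucleolus that act in ribosome assembly.

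Several of the genes carry snoRNAs of the very classes whose proteins they encode. GENCODE 29 (GRCh38) places 14 snoRNA genes inside 4 of the 10 genes on the same strand, 5 in NOP56, 4 in NOP58, 3 in NCL and 2 in DKC1. None of the 14 overlapped a coding stretch of its host, and 5 lay whole inside an exon of at least 1 host transcript. The RNAs printed here are shown because their class is what these proteins bind. Capitals mark a box C (ATGATGA or GTGATGA in the first 25 bases), a box D (CTGA in the last 20 bases) or the ACA that stands 3 bases before the end, searched on the strand of the RNA. Of 278 SNORD transcripts in the annotation, 66.2% held that box C and 95.7% that box D, and 76.2% of 147 SNORA transcripts held the ACA.
SNORD86 in NOP56 (chr20:2656097-2656182, plus strand): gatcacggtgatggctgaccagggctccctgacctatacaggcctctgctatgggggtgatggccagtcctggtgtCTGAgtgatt
SNORD57 in NOP56 (chr20:2656939-2657010, plus strand): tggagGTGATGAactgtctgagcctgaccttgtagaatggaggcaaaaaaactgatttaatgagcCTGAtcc
SNORD11 in NOP58 (chr2:202293051-202293134, plus strand): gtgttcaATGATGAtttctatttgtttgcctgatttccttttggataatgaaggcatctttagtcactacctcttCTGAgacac
SNORD20 in NCL (chr2:231456444-231456523, minus strand): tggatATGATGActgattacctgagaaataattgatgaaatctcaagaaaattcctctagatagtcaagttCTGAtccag
SNORD82 in NCL (chr2:231460371-231460440, minus strand): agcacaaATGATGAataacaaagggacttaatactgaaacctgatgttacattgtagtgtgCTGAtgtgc
SNORA36A in DKC1 (chrX:154768528-154768659, plus strand): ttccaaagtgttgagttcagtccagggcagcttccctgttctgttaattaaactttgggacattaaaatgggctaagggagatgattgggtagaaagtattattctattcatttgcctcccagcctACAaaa
In SNORD86 the searched box C was not in its window, and the other 4 SNORD sequences held both boxes.

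The labels held for the targeted gene: TRMT6 had 57.6, 58.4 and 95.3 FPKM in shControl and 20.7, 21.9 and 24.1 FPKM in shTRMT6 (log2 fold change -1.58, limma adjusted p = 0.00301). Summed FPKM ran from 1463000 to 1760000 per library, and the steps between low values gave about 2590000 to 4080000 reads per library. Pearson's r of log values across genes ranged from 0.936 to 0.964 between libraries of a group and from 0.865 to 0.923 across the groups. Of 7 epithelial markers, EPCAM, KRT8, KRT18 and CDX2 were detected in every library, while CDH1 and VIL1 were listed at 0 in all 6 and KRT19 in 5. Of 10 markers of other cell types, 8 had a median under 1 FPKM, with PTPRC, CD3E, VWF and DES at 0 throughout, and CD68 was at 559 to 754 FPKM. The summed level of those 10 was 560 to 741 FPKM in shControl and 577 to 757 FPKM in shTRMT6. Nearly all of that sum was CD68, since no other marker in the list exceeded 2.18 FPKM. The median change over the whole set tested was 0.39 on the log2 scale, and -0.07 when libraries were scaled to their medians (median scaling).

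shControl replicate 3 stood apart from the other control libraries in many, but not all, genes of ribosome assembly. Relative to the mean of shControl replicates 1 and 2 on the log2(FPKM + 1) scale, 7 of the 10 genes were higher in it, with a median difference of 0.79. The same difference over all tested genes had a median of -0.16, with 41.4% of genes higher. It was 1.36 for NCL, 1.34 for FBL, 1.07 for DKC1 and 1.03 for RRP9. For the short genes NHP2 and NOP10 it was -0.63 and -0.94, and for tested genes of similar coding length, up to 588 nt, the median was -0.63. Over the box H/ACA genes the median was -0.13. Of the lists described below, the processome and large subunit lists had medians of 0.91 and 0.98. Those of snoRNP assembly, exosome and polymerase I factors were 0.34, 0.19 and 0.18. Across genes, replicate 3 correlated at 0.944 and 0.936 with replicates 1 and 2, which correlated at 0.964 with each other.

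The genes did not move as a block. NOP56 and NOP58 rose after knockdown, FBL, DKC1 and GAR1 fell, and the other 5 did not pass (limma on log2(FPKM + 1), Benjamini-Hochberg adjusted p under 0.05). Thus 2 of 10 were called higher, against 26.5% of all tested genes, and 3 of 10 lower, against 9.04%, or 5 of 10 in either direction against 35.6%. Their median log2 fold change was -0.18. With median scaling 1 was higher (background 13.1%) and 5 lower (background 19.7%). Without shControl replicate 3 there were 3 higher (background 28.3%) and 4 lower (background 12.3%), 7 in all against 40.6%. Without any single knockdown library 1 remained called in each direction, NOP56 higher and GAR1 lower. Calls over all tested genes also fell in those fits, to 15.8% to 18.0% higher and 5.08% to 6.29% lower. The groups did not overlap for NOP56, NOP58 and NCL, which were higher in every knockdown library (37.0% of tested genes), and for FBL, DKC1, GAR1 and NPM1, which were lower (14.3%). That is 7 of 10 without overlap, against 51.4% of tested genes. The footprint level of a gene is a product of its mRNA and of the ribosomes on each mRNA, which these data do not separate.

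**Figure D1:**
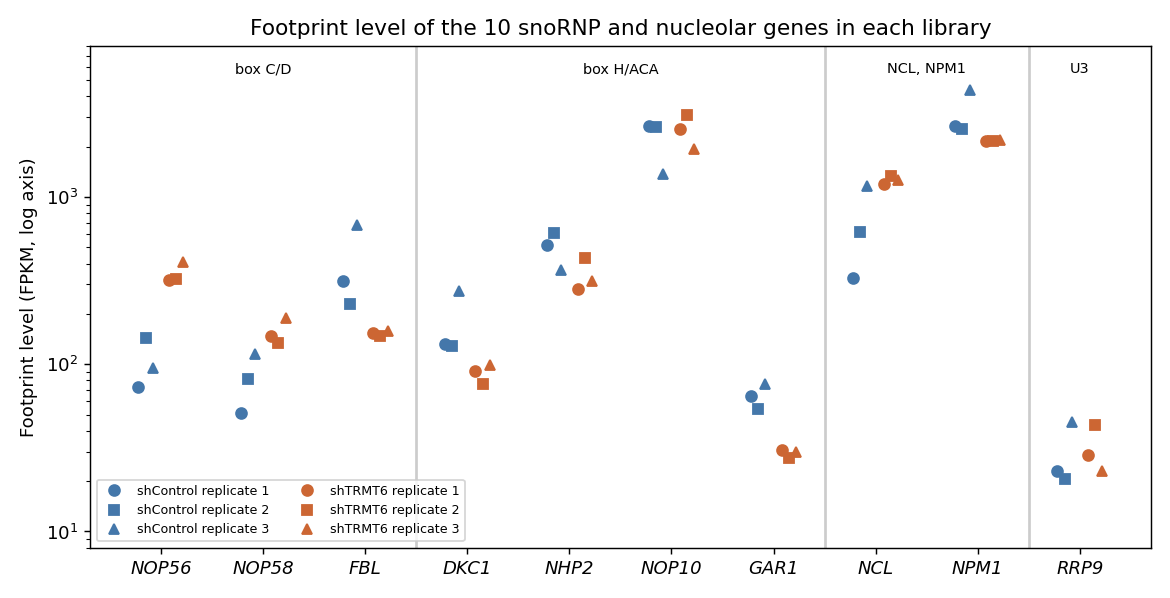
Footprint level (FPKM, log axis) of each of the 10 genes in the 3 shControl libraries (blue) and the 3 shTRMT6 libraries (orange), with 1 marker shape per replicate number. NOP56, NOP58 and NCL are higher in every knockdown library, FBL, DKC1, GAR1 and NPM1 are lower, and shControl replicate 3 (blue triangles) is the highest control for NOP58, FBL, DKC1, GAR1, NCL, NPM1 and RRP9.

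In the box C/D class the scaffold proteins and the methyltransferase went opposite ways. NOP56 (ENSG00000101361, protein-coding, chromosome 20 from 2652145 to 2658393, plus strand) had 72.9, 144 and 94.4 FPKM in shControl and 319, 322 and 410 FPKM in shTRMT6. Each knockdown library was far above each control library. The mean went from 104 ± 36.5 to 350 ± 51.7 FPKM (SD, n = 3 each), 3.38-fold higher, with a log2 fold change of 1.79 (SE 0.27, limma adjusted p = 0.00198). Its call held in all 15 alternatives, with log2 fold changes from 1.30 with median scaling to 2.06 without shControl replicate 2.

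NOP58 (ENSG00000055044, chromosome 2 from 202265716 to 202303666, plus strand), the paralogous partner of NOP56, had 51.2, 81.9 and 115 FPKM in shControl and 148, 133 and 190 FPKM in shTRMT6. The groups did not overlap, but the highest control and the lowest knockdown library lay close together. The log2 fold change was 0.97 (SE 0.31, limma adjusted p = 0.0336), about 1.89-fold in the means. This call was fragile: it held in 5 of 15 alternatives. It ended with median scaling (log2 fold change 0.48, adjusted p = 0.248), with trends with level and coding length removed (0.72, adjusted p = 0.0699), and without any 1 library other than shControl replicate 3 (adjusted p from 0.0559 to 0.125). Without shControl replicate 3 the log2 fold change was 1.25 (adjusted p = 0.00745).

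FBL (ENSG00000105202, chromosome 19 from 39834458 to 39846414, minus strand) had 313, 229 and 682 FPKM in shControl and 154, 147 and 157 FPKM in shTRMT6. The knockdown libraries were nearly equal, at 153 ± 4.90 FPKM (SD, n = 3), while the control libraries spread widely, at 408 ± 241 FPKM (SD, n = 3). FBL was 2.67-fold lower in the means, with a log2 fold change of -1.25 (SE 0.35, limma adjusted p = 0.0219). Without shControl replicate 3, the highest library, the log2 fold change was -0.81 (adjusted p = 0.0102). The call ended without any 1 of the knockdown libraries (adjusted p from 0.0620 to 0.0681) and with trends removed (-1.04, adjusted p = 0.0543). SNU13, the remaining core protein of box C/D snoRNPs and also a component of the spliceosome, had 1252, 1196 and 684 FPKM in shControl and 739, 960 and 659 FPKM in shTRMT6, with overlapping groups (log2 fold change -0.38, limma adjusted p = 0.308).

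The summed level of the 3 box C/D genes did not separate the groups. It was 437, 455 and 891 FPKM in shControl and 621, 603 and 757 FPKM in shTRMT6, with overlapping groups (two-sided exact permutation p = 0.6, where 3 against 3 gives no p under 0.1). The fold in the means was 1.11, but 0.779-fold with median scaling and 1.48-fold without shControl replicate 3. A ratio of partners within a library is not altered by scaling that library. FBL to NOP56 was 4.30, 1.59 and 7.22 in shControl and 0.484, 0.457 and 0.383 in shTRMT6, so FBL exceeded NOP56 in every control library and NOP56 exceeded FBL in every knockdown library. NOP58 to NOP56 was 0.703, 0.568 and 1.22 in shControl and 0.463, 0.414 and 0.462 in shTRMT6. The knockdown libraries thus had the lower value of both ratios in every case and a narrower spread, 0.441 ± 0.0527 for FBL to NOP56 against 4.37 ± 2.81 in shControl (SD, n = 3 each). These ratios were chosen after the values were seen and carry no test.

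**Figure D2:**
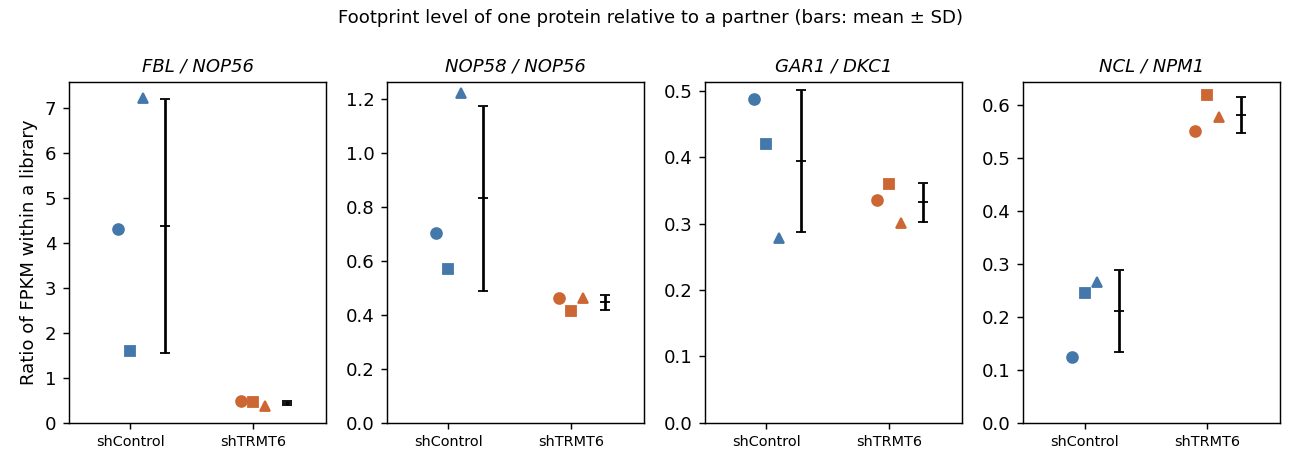
Ratio of the FPKM of 2 partner genes within each library, for shControl (blue) and shTRMT6 (orange), with 1 marker shape per replicate number and bars for mean ± SD (n = 3). The FBL to NOP56 ratio lies between 1.59 and 7.22 in shControl and between 0.383 and 0.484 in shTRMT6, the NCL to NPM1 ratio is higher in every knockdown library, and the GAR1 to DKC1 ratio overlaps between the groups.

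Among the box H/ACA proteins the catalytic subunit and GAR1 fell, and the smallest subunits did not pass. DKC1 (ENSG00000130826, X chromosome from 154762742 to 154777689, plus strand) had 132, 129 and 275 FPKM in shControl and 91.1, 76.4 and 98.9 FPKM in shTRMT6. Every knockdown library was below every control library, and shControl replicate 3 was again far above the other controls. The log2 fold change was -0.92 (SE 0.31, limma adjusted p = 0.0431), 2.01-fold lower in the means. Without shControl replicate 3 it was -0.56 (adjusted p = 0.0383). The call ended without any 1 knockdown library (adjusted p from 0.0827 to 0.132).

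GAR1 (ENSG00000109534, chromosome 4 from 109815510 to 109824740, plus strand), which joins the complex late in its assembly, had 64.4, 54.2 and 76.4 FPKM in shControl and 30.6, 27.5 and 29.8 FPKM in shTRMT6. These groups were well apart, and both were tight. GAR1 went from 64.97 ± 11.1 to 29.3 ± 1.64 FPKM (SD, n = 3 each), 2.22-fold lower, with a log2 fold change of -1.11 (SE 0.24, limma adjusted p = 0.00716). The call held in all 15 alternatives, between -0.99 and -1.60. GAR1 rests on few reads, about 50 to 195 per library by the step estimate.

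NHP2 (ENSG00000145912, chromosome 5 from 178149460 to 178153967, minus strand), an RNA-binding subunit, had 519, 610 and 363 FPKM in shControl and 282, 430 and 315 FPKM in shTRMT6. The groups overlapped, with a log2 fold change of -0.53 that did not pass (limma adjusted p = 0.136). It did pass without shControl replicate 3, its lowest control (-0.74, adjusted p = 0.0229), and with median scaling (-1.03, adjusted p = 0.0135). The gene overlaps RMND5B in the annotation, and whether strand was used in counting is not given in the sources used here.

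NOP10 (ENSG00000182117, chromosome 15 from 34341713 to 34343177, minus strand), the smallest subunit with a coding length of 192 nt, had 2644, 2638 and 1373 FPKM in shControl and 2551, 3091 and 1923 FPKM in shTRMT6. The groups overlapped broadly, and the log2 fold change of 0.22 did not pass (limma adjusted p = 0.595). Its sign depended on the treatment: -0.28 with median scaling, -0.094 without shControl replicate 3, but 0.48 with trends removed (adjusted p = 0.0299) and 0.79 with quantile normalization (adjusted p = 0.0301). NOP10 made up 65.8% to 86.4% of the summed FPKM of its class, so the class sum mostly followed this gene. That sum was 3359, 3432 and 2088 FPKM in shControl and 2954, 3625 and 2366 FPKM in shTRMT6 (1.01-fold in the means, two-sided exact permutation p = 1; 0.718-fold with median scaling and 0.878-fold without shControl replicate 3).

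Of the 6 pairs within the H/ACA class, the 3 ratios to DKC1 and that of NHP2 to GAR1 overlapped between the groups, and the ratios of NHP2 and GAR1 to NOP10 did not. NHP2 to NOP10 was 0.196, 0.231 and 0.265 in shControl and 0.110, 0.139 and 0.164 in shTRMT6. GAR1 to NOP10 was 0.0244, 0.0205 and 0.0556 in shControl and 0.0120, 0.00888 and 0.0155 in shTRMT6. Both were thus lower in every knockdown library, and like the other partner ratios they carry no test. GAR1 to DKC1 was 0.487, 0.420 and 0.278 in shControl and 0.336, 0.359 and 0.302 in shTRMT6, and NHP2 to DKC1 was 3.92, 4.73 and 1.32 against 3.09, 5.63 and 3.18. The log2 ratio of the H/ACA sum to the C/D sum averaged 2.36 ± 0.981 over the control and 2.16 ± 0.477 over the knockdown libraries (SD, n = 3 each; difference -0.20, two-sided exact permutation p = 0.8). Weighting each gene equally, by mean log2(FPKM + 1), the difference between the classes was 1.63, 1.22 and 0.71 in shControl and 0.14, 0.32 and -0.15 in shTRMT6. On that scale the groups did not overlap (difference -1.09, two-sided exact permutation p = 0.1, which is the lowest that 3 against 3 can give). This weighting was chosen after the data were seen.

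**Figure D3:**
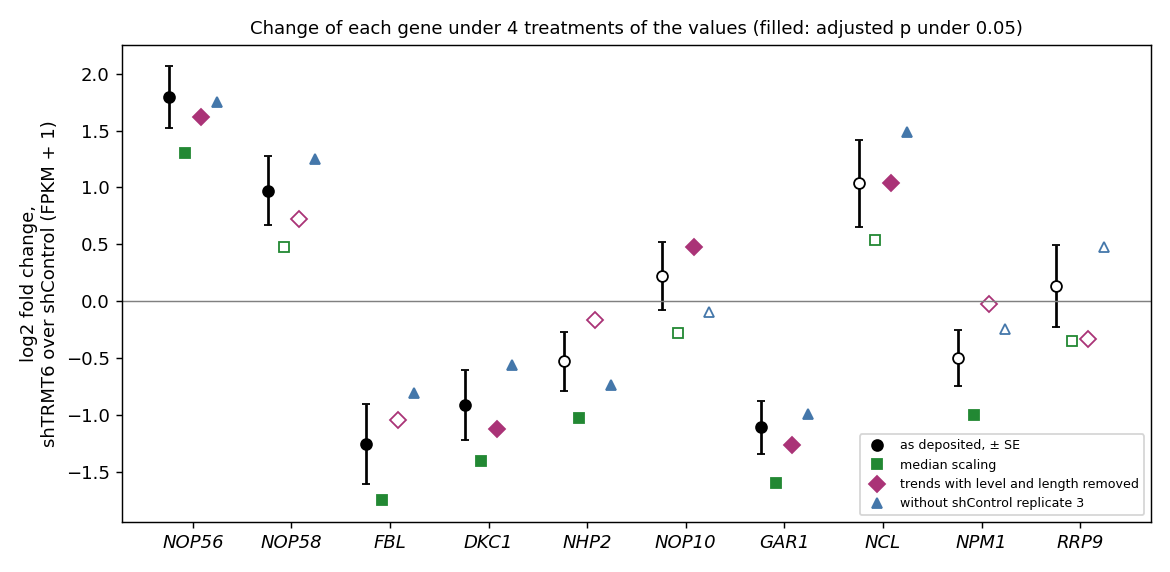
log2 fold change of each gene, shTRMT6 over shControl, on the log2(FPKM + 1) scale as deposited (black, bars ± SE), with median scaling (green), with trends with level and coding length removed (purple) and without shControl replicate 3 (blue); filled symbols have an adjusted p under 0.05. NOP56 and GAR1 are filled throughout, FBL and DKC1 lie below 0 throughout, and NOP10, with values from -0.28 to 0.48 here, and RRP9, from -0.35 to 0.48, lie on both sides of 0.

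NCL, NPM1 and RRP9 did not pass, although NCL and NPM1 separated the groups. NCL (ENSG00000115053, chromosome 2 from 231453531 to 231483641, minus strand) had 326, 621 and 1160 FPKM in shControl and 1193, 1336 and 1270 FPKM in shTRMT6. All knockdown libraries were above all controls, but shControl replicate 3 came within a narrow margin of the lowest knockdown library. Its mean went from 702 ± 423 to 1266 ± 71.9 FPKM (SD, n = 3 each), with a log2 fold change of 1.04 (SE 0.39, limma adjusted p = 0.0613). Without shControl replicate 3 it passed (log2 fold change 1.49, adjusted p = 0.00426), as it did with trends removed (1.04, adjusted p = 0.0320) and with quantile normalization (1.51, adjusted p = 0.0173). With median scaling it was 0.54 (adjusted p = 0.309).

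NPM1 (ENSG00000181163, chromosome 5 from 171387116 to 171411137, plus strand) had 2639, 2535 and 4374 FPKM in shControl and 2167, 2162 and 2204 FPKM in shTRMT6. The knockdown libraries differed from each other by little, at 2178 ± 22.7 FPKM (SD, n = 3), and all lay below the controls. The log2 fold change of -0.50 did not pass (SE 0.25, limma adjusted p = 0.137). It was -0.998 with median scaling, which passed (adjusted p = 0.0176), and -0.02 with trends removed (adjusted p = 0.952). The annotation names 45 pseudogenes after NPM1, 3 after NOP56 and 2 each after NCL and NHP2. How reads shared with such copies were divided is not given in the sources used here, and their part in these levels was not tested. NCL to NPM1 was 0.123, 0.245 and 0.265 in shControl and 0.550, 0.618 and 0.576 in shTRMT6, higher in every knockdown library.

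RRP9 (ENSG00000114767, chromosome 3 from 51933430 to 51941941, minus strand), a WD-repeat protein that binds U3, had the lowest control level, at 23.1, 20.5 and 45.4 FPKM in shControl and 28.7, 43.5 and 23.0 FPKM in shTRMT6. The groups overlapped, with 1 high library in each. The log2 fold change was 0.13 (SE 0.36, limma adjusted p = 0.794), and -0.35 with median scaling. It rests on about 76 to 254 reads per library.

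In the control libraries the order of mean level per length was NPM1, NOP10, NCL, NHP2, FBL, DKC1, NOP56, NOP58, GAR1 and RRP9, from 3183 to 29.7 FPKM. Of the 9 neighbouring pairs, NOP10 and NCL, and GAR1 and RRP9, had ranges that did not overlap. In the knockdown libraries the order was NOP10, NPM1, NCL, NOP56, NHP2, NOP58, FBL, DKC1, RRP9 and GAR1, from 2522 to 29.3 FPKM. NOP56 moved from rank 7 to rank 4, and FBL from rank 5 to rank 7. The pairs NOP10 and NPM1, NOP56 and NHP2, NOP58 and FBL, and RRP9 and GAR1 overlapped in range there.

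Across the table the change rose with coding length, and the signs of the 10 genes followed this only in part. NCL, NOP56 and NOP58, with coding lengths of 2130, 1782 and 1587 nt, were the longest of the 10 and had positive log2 fold changes. DKC1, with 1542 nt, was nearly as long and fell. NOP10, the shortest at 192 nt, had a positive log2 fold change of 0.22. FBL (-1.25) and NPM1 (-0.50), with 963 and 882 nt, were negative though the median of their length bin was positive. Over the tested genes the median of the change was -0.11 up to 588 nt, 0.12 at 852 to 1110 nt (the bin of FBL and NPM1), 0.45 at 1395 to 1719 nt (NOP58, DKC1 and RRP9) and 0.57 at 1722 to 2202 nt (NOP56 and NCL). Against those length medians NOP56 at 1.79 lay well above its bin, and FBL at -1.25 and DKC1 at -0.92 well below theirs. The median change also fell with level, from 0.74 in the lowest of 10 level bins to -0.39 in the highest. FBL, NPM1, NCL, NHP2 and NOP10 lay in the highest level bin, and NOP56, NOP58 and DKC1 in the next (median -0.03). With trends with level and length removed, 3 of the 10 were higher (NOP56, NCL and NOP10, background 13.5%) and 2 lower (DKC1 and GAR1, background 13.6%), 5 in all against 27.0%. The part of length or level in the single changes was not tested further.

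**Figure D4:**
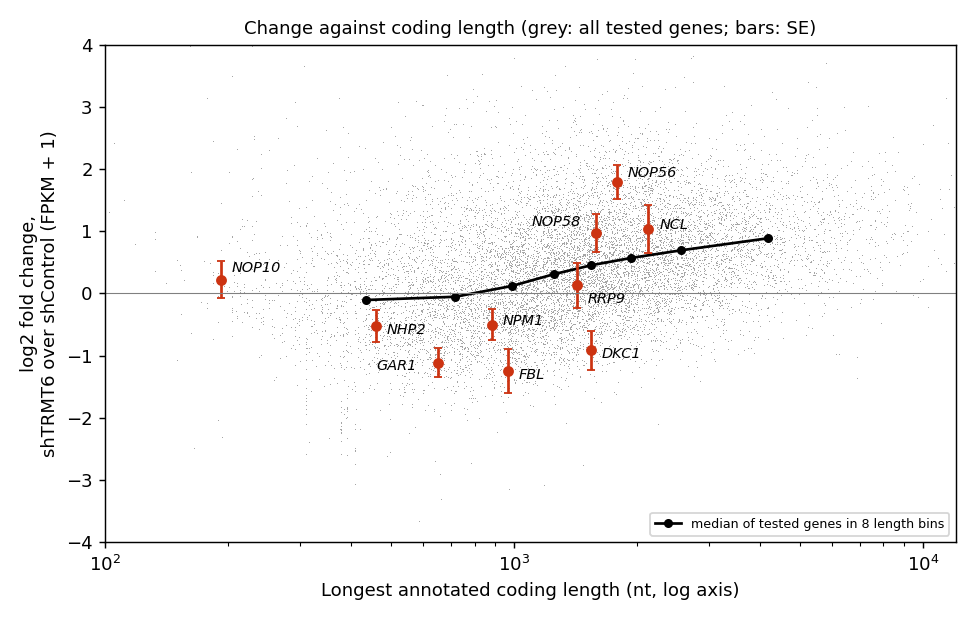
log2 fold change (shTRMT6 over shControl, log2(FPKM + 1) scale) against the longest annotated coding length in nt (log axis), with all tested genes as grey dots, the median of 8 length bins as a black line, and the 10 genes in red with SE. The black line climbs from -0.11 to 0.89; NOP56 (1.79) lies above it and FBL (-1.25), GAR1 (-1.11) and DKC1 (-0.92) below it.

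Genes that host a snoRNA were found in both directions. Of the 4 hosts among the 10, NOP56 and NOP58 rose, DKC1 fell and NCL did not pass, and among the 6 others FBL and GAR1 fell. Of all 199 tested genes with an annotated snoRNA inside, a list made after the data were seen, 46 were higher and 33 lower, 23.1% and 16.6%, against 26.5% and 9.04% of all tested genes. The 29 hosts with symbols of cytosolic ribosomal proteins count both RPL17 and the readthrough gene RPL17-C18orf32, which hold the same annotated snoRNAs. These 29 hosts had 0 higher and 13 lower (44.8%), with a median of -0.62 on the log2 scale. With trends removed they had 4 higher and 5 lower (13.8% and 17.2%, background 13.5% and 13.6%), with a median of -0.14. Of the 170 other hosts 46 were higher (27.1%) and 20 lower (11.8%), and their median change was 0.37. Under median scaling, 31 of the 199 were higher and 52 lower (15.6% and 26.1%, background 13.1% and 19.7%). When shControl replicate 3 was left out, 65 of the 199 were higher and 42 lower (32.7% and 21.1%, background 28.3% and 12.3%). Of the ribosomal protein hosts 4 were then higher and 18 lower (13.8% and 62.1%). Reads of the snoRNAs themselves were not analysed here, and their part in the host genes' values was not tested.

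Of 12 tested factors that assemble snoRNPs, 1 was higher and 1 lower (8.33% each, background 26.5% and 9.04%), with a median log2 fold change of -0.02. NOLC1, a nucleolar chaperone of snoRNPs, had 27.1, 37.2 and 49.6 FPKM in shControl and 91.3, 69.0 and 101 FPKM in shTRMT6, with no overlap (log2 fold change 1.20, limma adjusted p = 0.0105). With median scaling NOLC1 was at 0.71 (adjusted p = 0.0754). ZNHIT3, a zinc finger factor of box C/D assembly, went from 320 ± 14.6 to 169 FPKM (log2 fold change -0.92, limma adjusted p = 0.00634). With median scaling 0 were higher and 3 lower in this list (25% lower, background 19.7%). Leaving out shControl replicate 3 gave 2 higher and 2 lower (16.7% each, background 28.3% and 12.3%).

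Genes of small subunit assembly, listed here under the small subunit processome, the particle in which the U3 snoRNP works, were called in both directions. Of 40 tested, 9 were higher (22.5%) and 4 lower (10.0%), near the background of 26.5% and 9.04%, and the median change was 0.41 on the log2 scale. The helicase DHX37 (1.61) and UTP14A (1.13) were higher, and the methyltransferase BUD23 (-1.09) and the U3 protein IMP3 (-0.93) were lower. BUD23 had 368, 356 and 445 FPKM in shControl and 158, 201 and 190 FPKM in shTRMT6. With median scaling 1 was higher and 8 lower (2.5% and 20%, background 13.1% and 19.7%). With trends removed 0 were higher and 5 lower (0% and 12.5%, background 13.5% and 13.6%). In shControl replicate 3, 34 of the 40 were above the mean of the other controls, by a median of 0.91. Without that library 20 were higher and 4 lower (50% and 10%), against a background of 28.3% and 12.3%. Without any 1 of the others, 1 to 6 were higher (2.5% to 15%), against a background of 15.8% to 27.1%.

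Large subunit assembly factors had 15 of 50 higher and 5 lower (30% and 10%), near the background of 26.5% and 9.04%, at a median of 0.55 on the log2 scale. PELP1 (1.61), of the complex that releases the pre-60S particle, and NOP53 (1.39) were higher, and EBNA1BP2 (-1.04) and NOP16 (-0.95) were lower. EBNA1BP2 had 330, 323 and 343 FPKM in shControl and 157, 164 and 162 FPKM in shTRMT6, the groups far apart and each tight. Under median scaling more were lower than higher, 11 against 6 (22% and 12%, background 19.7% and 13.1%). With trends removed 6 were higher and 3 lower (12% and 6%, background 13.5% and 13.6%). Here too shControl replicate 3 was above the mean of the other controls in 43 of 50 genes, and the median difference over the list was 0.98. Without that library 29 were higher and 5 lower (58% and 10%, background 28.3% and 12.3%). Without any 1 of the other libraries, 7 to 10 were higher (14% to 20%, background 15.8% to 27.1%).

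RNA polymerase I, which transcribes ribosomal RNA, and its factors had 7 of 16 higher (43.8%, background 26.5%) and 0 lower (background 9.04%), the median change being 0.74 on the log2 scale. With trends removed 3 of 16 were higher (18.8%, background 13.5%) and 0 lower. The largest change was that of the selectivity factor subunit TAF1D (3.52), a gene with 8 annotated snoRNAs, at 583, 1298 and 338 FPKM in shControl and 7684, 5450 and 9225 FPKM in shTRMT6. TTF1, a terminator-binding factor, had a log2 fold change of 1.42, and with trends removed it did not pass (0.65, limma adjusted p = 0.119). Under median scaling the list had 4 higher and 1 lower (25% and 6.25%, background 13.1% and 19.7%). The RNA exosome, which trims the precursors of ribosomal RNA and snoRNAs, had 0 of 14 higher (background 26.5%) and 3 lower (21.4%, background 9.04%), with a median of -0.35. EXOSC7 went from 155 ± 15.2 to 61.6 FPKM (log2 fold change -1.32) and EXOSC4 from 223 to 101 FPKM (-1.15). Scaled to medians, 0 exosome genes were higher (background 13.1%) and 7 lower (50%, background 19.7%). Without shControl replicate 3, 3 were higher and 5 lower (21.4% and 35.7%, background 28.3% and 12.3%).

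**Figure D5:**
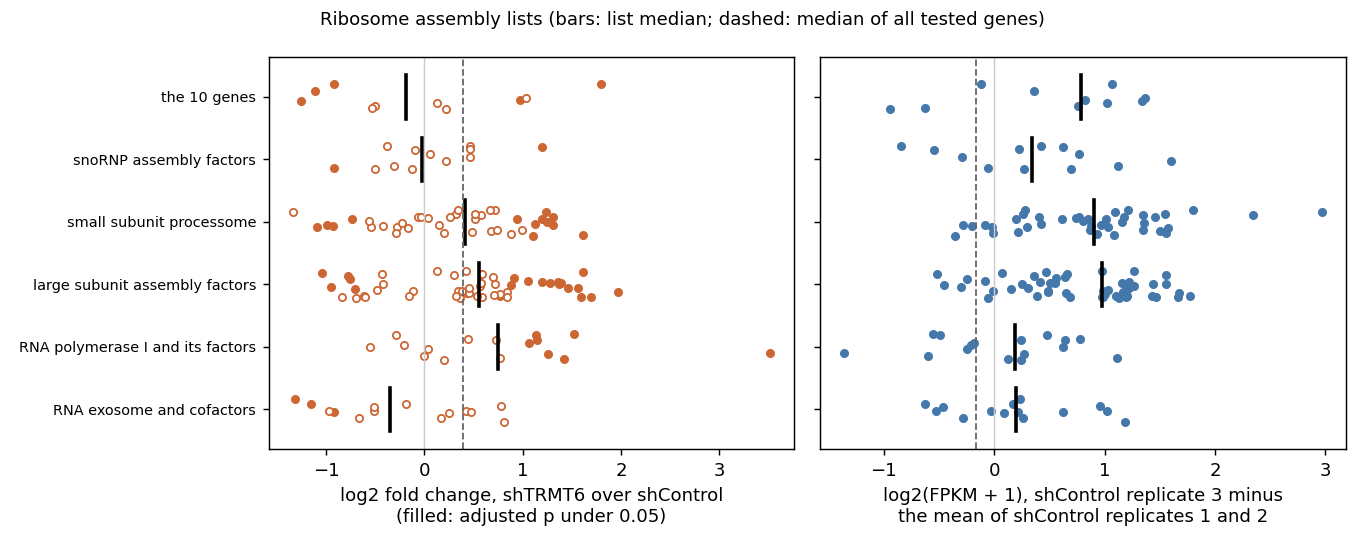
Left, log2 fold change (shTRMT6 over shControl) of the 10 genes and of the 5 ribosome assembly lists, 1 point per gene, filled where the adjusted p is under 0.05; right, the difference of shControl replicate 3 from the mean of shControl replicates 1 and 2 on the log2(FPKM + 1) scale. Solid bars are list medians and dashed lines the median of all tested genes (0.39 left, -0.16 right); the processome and large subunit lists lie at 0.91 and 0.98 on the right.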

How the data were processed

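The authors deposited 1 table of FPKM per gene, per the file headers. Of tools, fastp, STAR and RSEM are listed in the submitters' processing notes, with neither version nor role. Each of build, annotation, strand setting and handling of ribosomal RNA reads is not given in the sources used here. Columns named NC and SH, numbered 1 to 3, were read as shControl and shTRMT6, which no label spells out; 0 columns were left unassigned. Members, gene lists and tests were chosen with earlier results of these data known. Symbols came from a gene name table (19705 of 20289 identifiers), and positions, coding lengths (longest coding transcript, without stop codon) and snoRNAs from GENCODE 29, which holds 20171 of them.

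Differences were tested on log2(FPKM + 1) with limma 3.58.1 (R 4.3.3), group as the only term, eBayes with an intensity trend, adjusted over 11566 genes; such fold changes understate those of low genes. It was tested on simulated data. Sums and the log2 ratio of the H/ACA to the C/D class, in both weightings, were tested by exact permutation (scipy 1.17.1). Ratios of partner genes were not tested. Low FPKM values fall on steps: with coding length, 61.0% to 69.8% of low values came within 0.1 of a whole read, against 20.8% to 43.8% with transcript length. Read numbers are estimates from these steps, so no count model was fitted. Named genes are all 10 members, TRMT6, SNU13 and, from each list, up to 2 called genes of smallest p in each direction. Markers, the genes of shControl replicate 3's differences and genes in ratios were named beside these. Alternatives were median scaling, quantile normalization, equal FPKM sums, removal of trends with level and coding length (per-library splines of 5 degrees of freedom), no filter, a filter on a mean of 5 FPKM, 0.1 as pseudocount, no intensity trend, the replicate number as a block, and leaving out each library.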

Additional observations from a re-analysis of the deposited data

How the results depend on the processing

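NOP56 and GAR1 kept their direction and call in all 15 alternatives. NOP58 lost its call with median scaling (0.48), quantile normalization (0.85), trends removed (0.72), no filter on low values (0.97) and no intensity trend (0.97). FBL lost it with trends removed (-1.04), and DKC1 with equal FPKM sums (-0.83), no filter (-0.92) and no intensity trend (-0.92). Calls were gained by NHP2 (-1.03) and NPM1 (-0.998) with median scaling, and by NOP10 (0.79 and 0.48) and NCL (1.51 and 1.04) with quantile normalization and trends removed. NOP10 changed sign with median scaling (-0.28), and RRP9 with median scaling (-0.35), quantile normalization (-0.34) and trends removed (-0.33). The summed level turned with median scaling for box C/D (0.779-fold) and box H/ACA genes (0.718-fold). The sum of all 10 genes was 0.953-fold as deposited (two-sided exact permutation p = 0.6). With median scaling that sum was 0.674-fold (two-sided exact permutation p = 0.1, the lowest that 3 against 3 can give).

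Leaving out 1 library gave log2 fold changes of 0.67 to 1.25 for NOP58, -1.59 to -0.81 for FBL, -1.10 to -0.56 for DKC1, -0.74 to -0.37 for NHP2, -0.094 to 0.40 for NOP10, 0.58 to 1.49 for NCL and -0.11 to 0.48 for RRP9. The summed levels ranged from 0.981 to 1.48-fold for box C/D, 0.878 to 1.11-fold for box H/ACA and 0.909 to 1.03-fold for all 10 genes, and the difference of the log2 class ratio from -0.77 to 0.090. Called members ranged from 1 to 3 higher and 1 to 4 lower, all tested genes from 1828 to 3270 higher and 587 to 1428 lower, and the 5 lists from 14 to 62 higher and 9 to 16 lower.

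Of all tested genes 3069 were higher and 1046 lower, against 1520 and 2275 with median scaling. The counts were 1602 and 1700 with quantile normalization, and 1547 and 1559 with trends removed. The members called were 2 higher and 3 lower, against 1 and 5 with median scaling, and 1 and 2 with no filter or with no intensity trend. The 132 genes of the 5 lists had 32 higher and 13 lower, against 11 and 30 with median scaling. Their counts were 12 and 19 with quantile normalization, and 11 and 14 with trends removed. The cause of these differences was not tested.

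The same replicate number in both groups does not mark a shared culture in the labels, and deviations of same-numbered libraries correlated at 0.01, 0.01 and 0.10. With the replicate number as a block NCL passed (1.04, adjusted p = 0.0219), the other 9 genes kept their side of the threshold, and 3146 genes were called higher and 1065 lower. GAR1 and RRP9 rest on the fewest estimated reads, 50 to 195 and 76 to 254 per library.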
